A study of Mus musculus with 8 samples.

Results

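The genes described here encode cadherins and the proteins that cadherins work with at cell contacts: classical and other cadherins (*Cdh*, 22 genes), non-clustered protocadherins (12), clustered protocadherins of the alpha, beta and gamma clusters (35), the *Celsr* cadherins (3), catenins (6) and the desmosomal cadherins, desmogleins and desmocollins (9). They were picked by a rule on gene names, set with earlier results of these data known, without *Cdh1* and *Cdh2*, and make up 87 of the 36406 gene names on the array. The 87 genes are read by 112 probes on 122 spots, and each gene is represented by its brightest probe, as averaged across all 8 arrays. For 17 genes more than 1 probe was present.

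Cadherins are transmembrane proteins that bind their like on the neighbouring cell through calcium-dependent repeats outside the cell. Inside, classical cadherins hold p120-type catenins and beta-catenin, and alpha-catenin ties the complex to actin, whereas desmosomal cadherins hold plakoglobin, plakophilins and desmoplakin, which reach to intermediate filaments. Protocadherins have a different cytoplasmic part. The clustered ones are transcribed from many alternative promoters on mouse chromosome 18, so that single neurons carry different combinations of isoforms. The *Celsr* proteins belong to the planar cell polarity system. Embryonic stem (ES) cells adhere through E-cadherin, and a change of cadherins accompanies many steps of their differentiation.

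E14Tg2A.4 mouse ES cells, a feeder-independent line, were either not treated (4 samples) or exposed to retinoic acid (RA) for 72 h (4 samples). Total RNA of each of the 8 samples was labelled with Cy3 and hybridized to its own 1-colour Agilent array. Per the methods, RA was all-trans RA at 1 µM and was added in medium without leukemia inhibitory factor, so RA and the loss of this factor cannot be told apart. All samples come from this single line and carry no other stated alteration, and the replicates are described as biological.

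Intensities are given as log2 of the background-corrected signal over the array's own 75th percentile, called relative log2 intensity below, and only differences between conditions of the same probe are compared. Per array 33629 to 37175 spots in untreated and 35034 to 35780 in RA-treated cells were well above background, none was saturated, and the number of arrays limits the precision. ES cell markers went with the labels: all 6 of *Pou5f1*, *Nanog*, *Zfp42*, *Esrrb*, *Klf4* and *Tdgf1* were lower after RA treatment, and their summed linear level went from 252 to 355 times the 75th percentile in untreated arrays to 7.36 to 29.2 times in RA-treated ones. Of 6 primitive endoderm markers, all were higher (summed level 1.21 to 2.24 untreated, 21.7 to 36.6 RA-treated), as were 5 of 6 fibroblast markers, all except *Thy1* (0.997 to 1.81 untreated, 20.02 to 37.98 RA-treated). In the neural list, which had 5 genes on the array, *Nes* and *Dcx* were higher and *Tubb3* was lower. In these bulk samples, fewer cells of a type and less RNA per cell cannot be told apart, and the part of a changed cell mix in the results below was not tested.

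RA treatment changed 29 of the 87 genes, 22 upward and 7 downward, at an adjusted p under 0.05 and a change above 1.5-fold in limma. That is 33.3% of the genes, against 36.1% of all gene names on the array called by the same rule, a share near the background. By direction, 25.3% were higher against 13.9% of all gene names, and 8.05% were lower against 22.1%. The median log2 change was -0.02 over the 87 genes and -0.28 over all gene names, and over the 87 genes it was 0.19 after quantile normalization and -0.16 with normexp, so its sign depended on the scaling. The 4 arrays of one condition lay beyond all 4 of the other for 29 of the 87 genes, or 33.3%, against 40.5% of all gene names. By the probe used, 31 of the 87 genes were not well above background on any array and 31 were well above it on all 8.

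**Figure D1:**
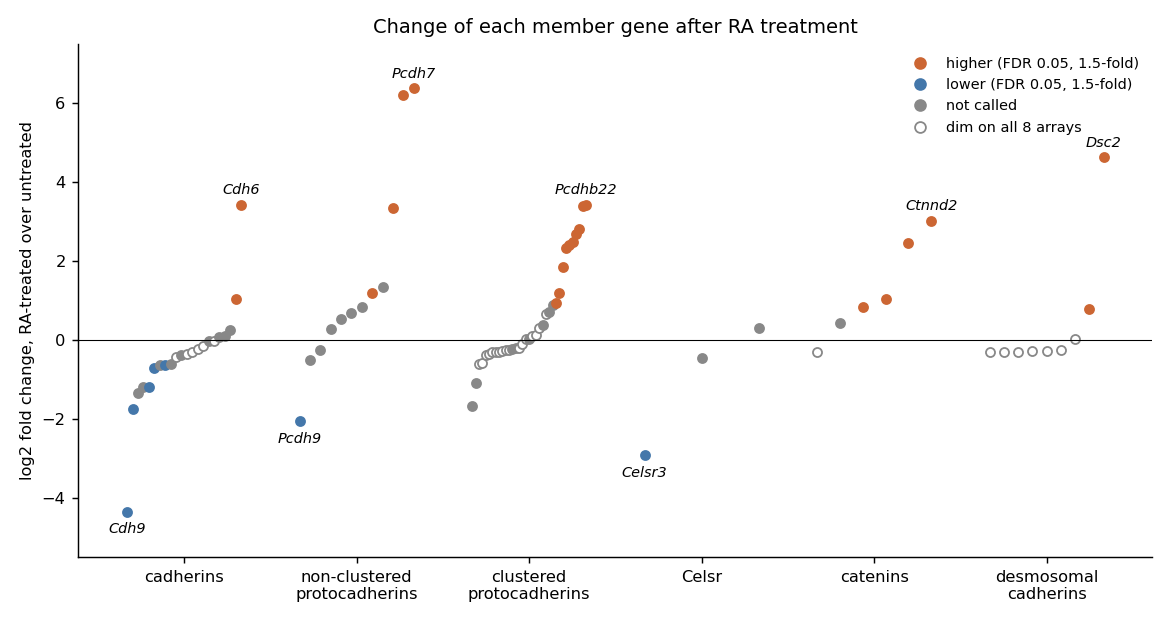
Change of each of the 87 genes after RA treatment (vertical axis, log2 fold change of RA-treated over untreated cells), in 6 groups along the horizontal axis. Filled coloured points passed the test, grey points did not, and open points were not well above background on any array by the probe used. Genes above background in a single condition, such as *Pcdh7*, are drawn at their measured difference. Of the cadherins 22.7% were lower, against 22.1% of all gene names, and of the clustered protocadherins 28.6% were higher, against 13.9%. Open points include 7 of the 9 desmosomal cadherins.

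Among the 22 *Cdh* genes, 2 rose (*Cdh6* and *Cdh24*), 5 fell (*Cdh9*, *Cdh22*, *Cdh15*, *Cdh12* and *Cdh8*) and 15 were not called, and their median log2 change was -0.36. The higher share was 9.09% and the lower share 22.7%, against 13.9% and 22.1% of all gene names, so the lower share was near the background. *Cdh6* encodes K-cadherin, a type II cadherin of the kidney and the early nervous system, and is read by a probe at chr15:12963981-12964040 (mm9). Its relative log2 intensity was -4.22, -4.02, -3.84 and -4.10 in untreated replicates 1 to 4 and -0.68, -0.57, -0.69 and -0.52 in RA-treated replicates 1 to 4. The RA-treated arrays lay far above the untreated ones, with an SD of 0.08 (n = 4), a rise of 3.43 ± 0.14 (standard error) on the log2 scale, or 10.8-fold (adjusted p = 1.81e-06, limma), and of 2.28 with the normexp correction.

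*Cdh9* encodes another type II cadherin, known from neurons, and moved the other way (probe at chr15:16785915-16785974, mm9). Its arrays read -1.53, -1.88, -1.56 and -1.95 in untreated cells and -5.98, -5.67, -5.34 and -7.28 after RA treatment, with no overlap. It fell by 4.34 ± 0.38 on the log2 scale (20.2-fold, adjusted p = 4.41e-05, limma), and only 1 of the 4 RA-treated arrays was still well above background. With the normexp background correction the change was -2.08 and with the authors' values -1.91, so the direction held and the size did not. *Cdh22*, a type II cadherin of the brain, fell from between -1.21 and -0.15 to between -2.74 and -2.00, a log2 change of -1.75 ± 0.27 (3.35-fold, adjusted p = 0.000941). *Cdh15* encodes M-cadherin, known from muscle precursors, and fell from -2.47, -2.12, -2.48 and -2.18 to -3.47, -3.16, -3.39 and -4.00, a log2 change of -1.19 ± 0.20 (2.28-fold, adjusted p = 0.00172). For both genes the conditions did not overlap.

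*Cdh6* and *Cdh9* were the *Cdh* genes with the most marked rise and fall, and the 250 bases before their annotated starts are shown for that reason (RefSeq, GRCm38.p6, 5′ to 3′ on the strand of the gene). The window of *Cdh6* is chr15:13173676-13173925 on the minus strand and that of *Cdh9* is chr15:16728665-16728914 on the plus strand. The capitals mark the longest run of bases that the windows share, found after both sequences had been looked at.
Cdh6: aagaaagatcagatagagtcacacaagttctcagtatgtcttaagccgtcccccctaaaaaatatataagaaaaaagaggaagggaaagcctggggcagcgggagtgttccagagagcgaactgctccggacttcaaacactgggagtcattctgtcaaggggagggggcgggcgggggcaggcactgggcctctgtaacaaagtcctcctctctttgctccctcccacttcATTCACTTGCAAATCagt
Cdh9: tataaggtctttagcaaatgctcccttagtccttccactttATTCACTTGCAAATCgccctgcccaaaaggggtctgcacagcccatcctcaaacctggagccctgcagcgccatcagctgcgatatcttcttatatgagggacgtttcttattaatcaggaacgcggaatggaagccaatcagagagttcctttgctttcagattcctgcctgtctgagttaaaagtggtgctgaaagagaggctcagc
The shared run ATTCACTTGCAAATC is 15 bases long and ends 3 bases before the start of *Cdh6* and 194 bases before that of *Cdh9*. Searched on both strands, it occurred in no other of the 32851 promoter windows of the same length. The run was taken from these 2 windows, so its presence in them was fixed in advance and the count has no test. The genes that carry it changed in opposite directions, and what the run does was not tested.

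The smaller changes among the *Cdh* genes held less well. *Cdh12*, a type II cadherin of the brain, fell by 0.69 ± 0.17 on the log2 scale (adjusted p = 0.0106), from between -3.29 and -2.70 to between -3.90 and -3.54. *Cdh8*, also a type II cadherin of neurons, fell by 0.62 ± 0.20 (adjusted p = 0.0379) with overlapping arrays, and with the replicate number as a block its adjusted p was 0.0971. When arrays were left out in turn, its call was kept in 2 of 8 fits (without untreated replicate 3 and without RA-treated replicate 3). After quantile normalization neither was called, at log2 changes of -0.48 and -0.39. *Cdh24* passed the test (adjusted p = 0.0259), but it was well above background on 1 RA-treated array and no untreated one, so no fold is given, and with the block its adjusted p was 0.0516.

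Several well-known cadherins did not pass. *Cdh3*, which encodes P-cadherin of epithelia and placenta, read 1.15, 1.37, 0.97 and 1.50 in untreated and 1.26, 0.43, 1.55 and 1.67 in RA-treated cells, a log2 change of -0.02 ± 0.28 (adjusted p = 0.950) whose sign turned with the normalization. *Cdh4*, which encodes R-cadherin of the retina, gave 0.10 ± 0.31, and *Cdh13*, the membrane-anchored T-cadherin, gave -0.64 ± 0.60. *Cdh5*, the cadherin of endothelium, was not well above background on any array. The endothelial marker list had a summed level of 2.96 to 3.99 in untreated and 1.84 to 2.51 in RA-treated cells, 3 of its 6 genes were lower, and *Emcn* was not above background.

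*Cdh11*, the cadherin of mesenchyme and bone precursors, could not be settled because its probes disagreed. The brighter probe lies at base 1442 of the transcript and gave 0.07 ± 0.20 on the log2 scale (adjusted p = 0.782), well above background on all 8 arrays. The other lies at base 3578, was not well above background on any untreated array and was well above it on all 4 RA-treated ones, at least 10.67-fold higher (mean -7.42 untreated and -2.23 RA-treated, adjusted p = 2.54e-06). Which of them reads the transcript was not tested.

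**Figure D2:**
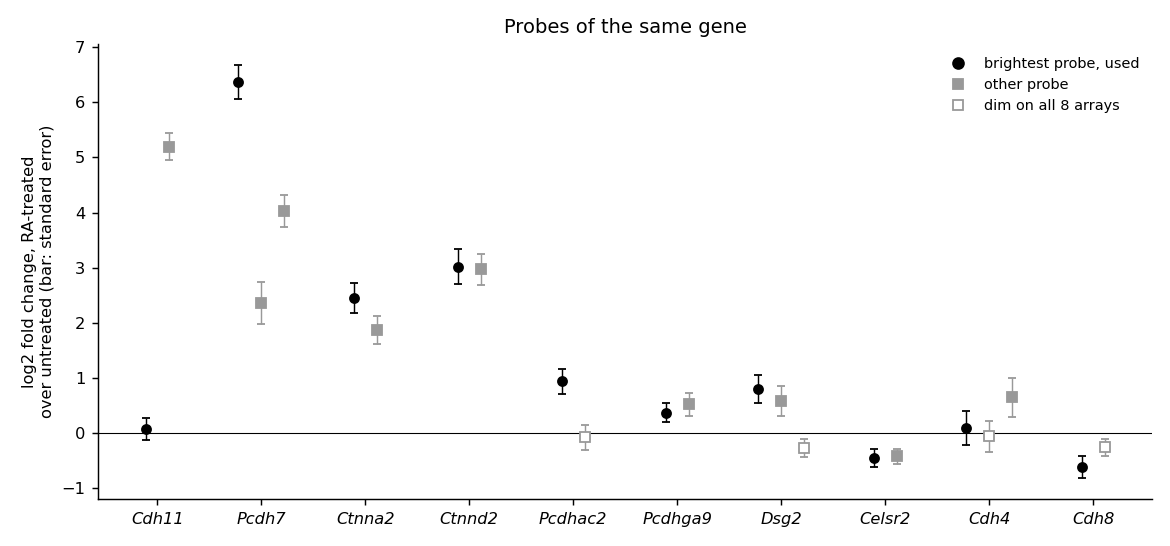
Log2 fold change of RA-treated over untreated cells (vertical axis, bars are standard errors from limma) for each probe of 10 genes that have more than 1. Black points are the probe used, grey squares other probes, open squares probes not well above background on any array. Probes not above background in untreated cells (all 3 of *Pcdh7*, the higher of *Cdh11* and the lower of *Ctnna2*) are drawn at their measured difference. The probes of *Cdh11* lie far apart and those of *Ctnnd2* lie close together.

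Of the 12 non-clustered protocadherins, 4 rose (*Pcdh7*, *Pcdh18*, *Pcdh12* and *Pcdh1*), *Pcdh9* fell and 7 were not called. The called share was 41.7%, against 36.1% of all gene names. *Pcdh7* encodes a delta-type protocadherin of brain and heart (probe at chr5:58120201-58120260, mm9). It read -7.51, -7.93, -8.00 and -7.51 in untreated cells, not well above background on any array. In RA-treated cells it read -0.56, -1.15, -1.86 and -1.89, well above background on all 4. Where a condition was not above background on any of its arrays, a fold is given only as a bound against the dimmest probe that was well above it, and on this basis *Pcdh7* was at least 19.5-fold higher (mean -7.74 untreated and -1.36 RA-treated, adjusted p = 3.23e-06, limma). Its other probes were also not above background in untreated cells and were at least 4.92-fold and 1.29-fold higher (adjusted p = 1.81e-05 and 0.00130). With normexp, a background correction that adds an offset to every signal and so draws dim signals together, the difference of the first probe was 2.78 on the log2 scale, which is below the bound.

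*Pcdh18* also encodes a delta-type protocadherin, known from neural and mesenchymal tissue of the embryo (probe at chr3:49547305-49547364, mm9). Its arrays read -5.53, -4.71, -5.26 and -4.88 in untreated cells, of which 3 were well above background, and 1.82, 1.43, 0.35 and 0.90 after RA treatment. With every RA-treated array far above every untreated one, it rose by 6.22 ± 0.33 on the log2 scale, or 74.4-fold (adjusted p = 4.38e-06, limma), and by 4.40 with the normexp correction. *Pcdh12*, known from endothelium and trophoblast, went from between -7.44 and -6.54, not above background, to between -4.79 and -3.37, at least 3.53-fold higher (adjusted p = 9.76e-05), with a log2 difference of 0.70 under normexp. It rose while 3 of the 6 endothelial markers were lower. *Pcdh1*, known from airway epithelium, rose by 1.20 ± 0.21, from 0.13, 0.14, -0.28 and 0.67 to 1.30, 1.48, 1.54 and 1.12, with no overlap (2.29-fold, adjusted p = 0.00220).

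In the opposite direction, *Pcdh9*, a neuronal protocadherin, read -4.24, -5.57, -5.34 and -5.43 in untreated cells and -5.71, -7.52, -7.80 and -7.74 after RA treatment. It was well above background on 2 untreated arrays and on no RA-treated one, and was at least 1.78-fold lower (adjusted p = 0.0108, limma). The call was lost with normexp (log2 change -0.47) and with the authors' values (-0.25), both smaller than the bound, and its other 2 probes were not above background on any array. *Pcdh17*, *Pcdh20*, *Pcdh8*, *Pcdh10*, *Pcdh19*, *Pcdh15* and *Pcdh11x* did not pass, with log2 changes between -0.51 and 1.34.

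The windows of 250 bases before the starts of *Pcdh7* and *Pcdh18* are shown because *Pcdh18* had the largest rise of the genes above background in both conditions and *Pcdh7* the largest bound (RefSeq, GRCm38.p6, 5′ to 3′ on the strand of the gene), with CpG dinucleotides, the sites of DNA methylation and of CpG islands, in capitals. They are chr5:57717831-57718080 on the plus strand and chr3:49757317-49757566 on the minus strand.
Pcdh7: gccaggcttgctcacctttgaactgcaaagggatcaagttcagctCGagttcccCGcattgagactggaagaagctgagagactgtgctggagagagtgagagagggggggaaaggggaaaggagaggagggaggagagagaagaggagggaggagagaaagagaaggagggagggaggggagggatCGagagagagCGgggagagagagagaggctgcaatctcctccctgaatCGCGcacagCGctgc
Pcdh18: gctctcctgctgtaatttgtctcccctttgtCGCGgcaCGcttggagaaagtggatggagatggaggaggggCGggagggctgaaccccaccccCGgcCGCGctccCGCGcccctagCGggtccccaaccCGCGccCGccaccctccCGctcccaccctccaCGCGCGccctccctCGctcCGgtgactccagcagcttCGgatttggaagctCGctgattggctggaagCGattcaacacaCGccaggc
*Pcdh18* held 23 CpG in this window and *Pcdh7* held 7, where the median of the 32851 promoter windows is 6 and the upper quartile is 16. The windows of *Cdh6* and *Cdh9* held 6 each. The letters CAGGTG, to which the Snail and Zeb repressors of cadherins can bind, or their reverse complement CACCTG occurred in none of these 4 windows and in 17.2% of all windows. The nuclear receptor hexamer AGGTCA, or TGACCT on the other strand, was likewise in none of the 4 and in 14.02% of all windows.

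**Figure D3:**
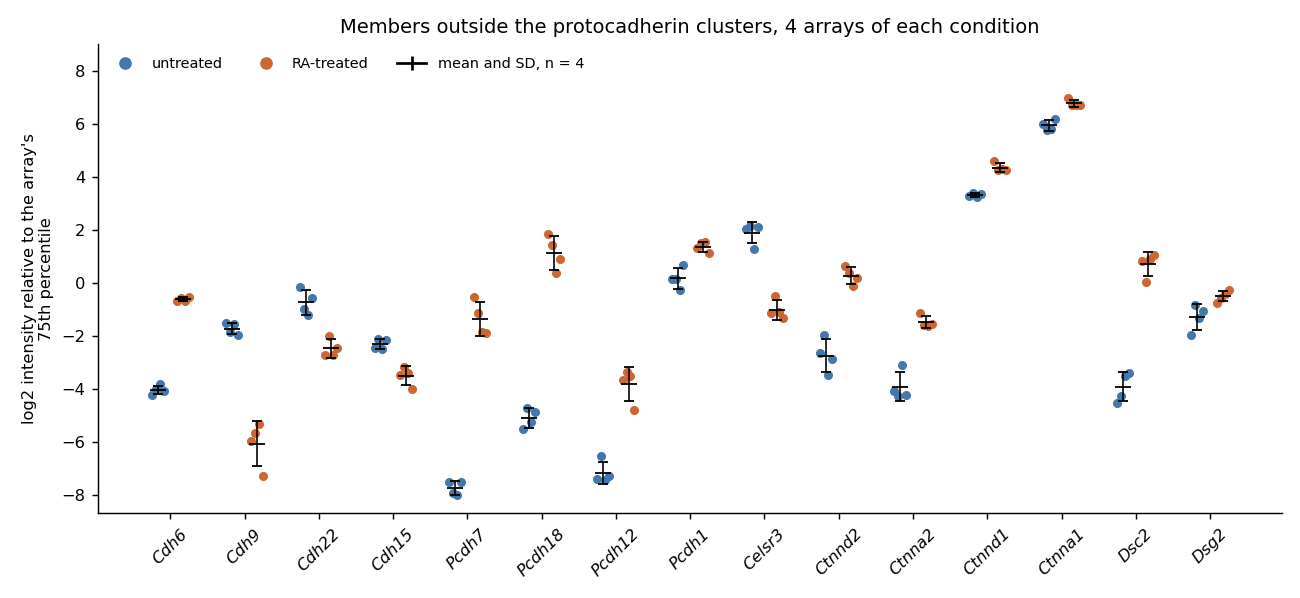
Relative log2 intensity (vertical axis, log2 of the signal over the 75th percentile of its array) of 15 called genes outside the protocadherin clusters, with 1 point for each of the 4 untreated (blue) and 4 RA-treated (orange) arrays and black bars for the mean and SD. The conditions do not overlap for any of these genes. *Pcdh7*, *Pcdh18* and *Dsc2* show the widest gaps upward and *Cdh9* the widest downward.

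Of the 35 clustered protocadherins, 10 rose, none fell and 25 were not called, of which 17 were not well above background on any array. The called share was 28.6%, against 36.1% of all gene names. The higher genes were 8 of 22 beta genes (*Pcdhb3*, *Pcdhb6*, *Pcdhb16*, *Pcdhb17*, *Pcdhb18*, *Pcdhb20*, *Pcdhb21* and *Pcdhb22*) and 2 of 7 alpha genes (*Pcdha9* and *Pcdhac2*). No gamma gene of 6 was called. The higher share was 36.4% of the beta and 28.6% of the alpha genes, against 13.9% of all gene names. The median log2 change of the 35 genes was 0.04.

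*Pcdhb22* read -6.04, -7.70, -5.76 and -5.75 in untreated cells, not well above background, and -3.08, -4.20, -2.18 and -2.11 after RA treatment, well above it on all 4 arrays. It was at least 6.73-fold higher (mean -6.31 untreated and -2.90 RA-treated, adjusted p = 0.00152, limma). Its neighbour *Pcdhb21* read -5.12, -7.53, -5.40 and -6.52 and then -2.93, -4.19, -2.08 and -1.76, a rise of 3.41 ± 0.65 on the log2 scale (10.6-fold, adjusted p = 0.00317), with 2 untreated arrays well above background. The arrays of these neighbouring genes did not overlap between conditions.

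For *Pcdhb20*, *Pcdhb17*, *Pcdhb18* and *Pcdhb16* no untreated array and 3 of 4 RA-treated arrays were well above background, and they were at least 2.55-fold, 1.99-fold, 1.86-fold and 1.86-fold higher (adjusted p = 0.00372, 0.00233, 0.00470 and 0.00940, limma). With normexp their log2 differences were 0.58, 0.48, 0.49 and 0.43, which is below these bounds. *Pcdhb6* rose by 2.40 ± 0.60 (adjusted p = 0.0122) and *Pcdhb3* by 1.86 ± 0.47 (adjusted p = 0.0133), both with overlapping arrays and 1 untreated array well above background, and under normexp the differences were 0.56 and 0.22. *Pcdhb12* and *Pcdhb14*, the only beta genes with all or most untreated arrays above background, gave -1.10 ± 0.74 and -1.67 ± 0.70 and did not pass.

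Along the beta cluster, the called genes lay mostly at the end with the higher numbers. Of the 7 genes at places 16 to 22, 6 rose, all except *Pcdhb19*, and of the 15 genes at places 1 to 15, 2 rose. This split was chosen after the values had been seen and has no test. The level also differed among the RA-treated samples: replicate 2 was the lowest of the 4 in 7 of the 8 higher beta genes, and replicates 3 and 4 were the 2 highest in 7 of the 8. Untreated replicate 2 was likewise the lowest untreated array for each of these genes except *Pcdhb17* and *Pcdhb18*. These levels therefore do not give the size of the rise in each replicate. The summed ES cell marker level was 13.3, 29.2, 11.8 and 7.36 in RA-treated replicates 1 to 4, so replicate 2 also kept the most of it. The summed fibroblast marker level was 37.98, 36.4, 20.02 and 25.9, so it was lowest in replicates 3 and 4. Single genes of that list were mixed. *Col1a2*, *Col1a1* and *Thy1* were lowest in replicate 3 and *Lum* in replicate 4, but *Col3a1* and *Postn* in replicate 2 (1.13 and -3.87). The part of either marker sum in the result was not tested.

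**Figure D4:**
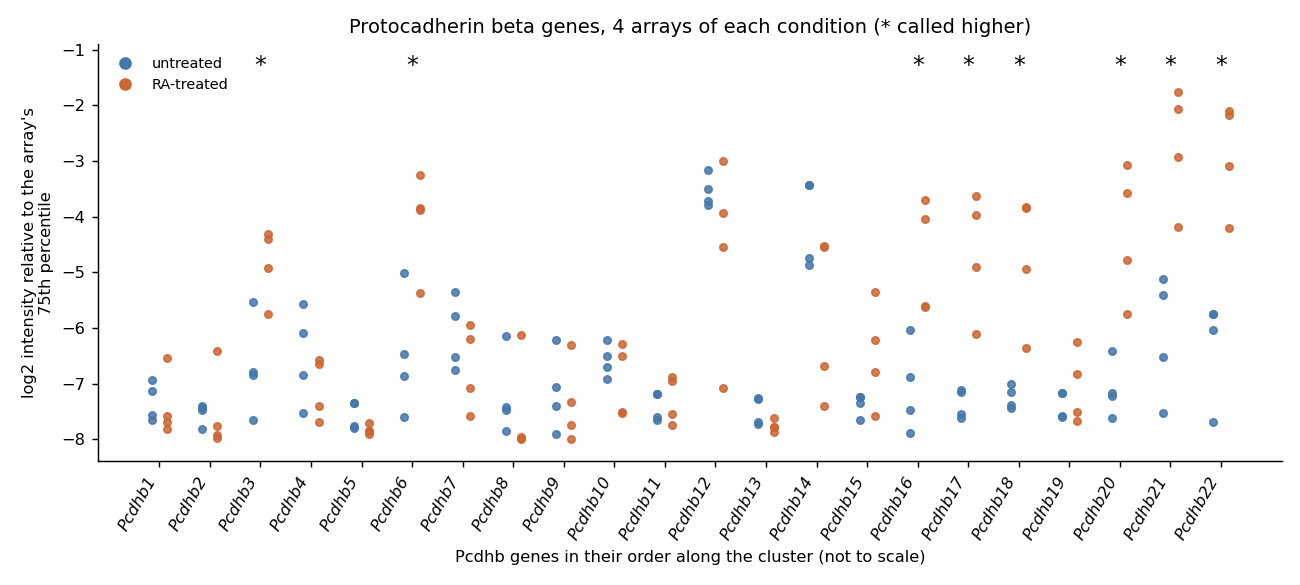
Relative log2 intensity (vertical axis) of the 22 protocadherin beta genes on the 4 untreated (blue) and 4 RA-treated (orange) arrays, in their order along the cluster (horizontal axis, not to scale). Stars mark the 8 genes called higher, 6 of them among the last 7 places. Values near -7 and below are not well above background.

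Most clustered protocadherins lie near the detection limit of the array, and this bounds what can be read from them. Only 4 of the 35 were well above background on all 8 arrays. With the normexp correction only *Pcdhb22* and *Pcdhb21* of the 10 were still called, at log2 differences of 1.13 and 1.30 (1.31 and 1.48 with the authors' values, which kept 7 of the 10), and with a filter on dim probes 5 were. The alpha and gamma isoforms also share their last exons, so probes placed there read several isoforms. *Pcdhac2* rose by 0.94 ± 0.23 (adjusted p = 0.0103, limma) on a probe that is annotated to several alpha transcripts, whereas its other probe was not above background on any array, and the mean over both, at 0.43, was not called. *Pcdha9* was at least 1.37-fold higher (adjusted p = 0.0189). *Pcdhga9*, read by a probe annotated to several gamma transcripts, read 3.45, 3.15, 3.02 and 3.19 and then 3.55, 3.41, 3.45 and 3.90, a log2 change of 0.37 ± 0.17 that did not pass (adjusted p = 0.110).

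Genes that act on the protocadherin promoters, which are bound by CTCF and cohesin and silenced by SETDB1 and SMCHD1, were listed as 11 further genes, all well above background. In this list 36.4% were called, against 36.1% of all gene names, a share near the background. *Setdb1* fell by 0.86 ± 0.14 on the log2 scale (adjusted p = 0.00138, limma) and *Wapal*, which releases cohesin, by 0.77 ± 0.16 (adjusted p = 0.00546). *Smchd1* rose by 0.74 ± 0.13 (adjusted p = 0.00184) and the cohesin subunit *Stag2* by 1.14 ± 0.17 (adjusted p = 0.000759). *Ctcf* gave -0.37 ± 0.14 (adjusted p = 0.0613), and the cohesin genes *Rad21*, *Smc3*, *Smc1a* and *Stag1* did not pass. The 2 silencing genes that passed therefore moved in opposite directions.

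Of the *Celsr* genes, which organise planar polarity in epithelia and neurons, *Celsr3* fell (probe at chr9:108755235-108755294, mm9). It read 2.03, 2.15, 1.28 and 2.10 in untreated cells and -1.16, -0.50, -1.11 and -1.34 after RA treatment. The arrays did not overlap, and the fall was 2.91 ± 0.26 on the log2 scale (7.54-fold, adjusted p = 4.32e-05, limma). *Celsr1* gave 0.31 ± 0.23 (adjusted p = 0.283). *Celsr2* gave -0.45 ± 0.16 (adjusted p = 0.0502) with no overlap between conditions, from between -1.58 and -1.32 to between -2.17 and -1.70. At 1.36-fold it missed the fold threshold as well as that on the adjusted p. Its other probe gave -0.42 ± 0.14 (adjusted p = 0.0436, limma) and also stayed under 1.5-fold.

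Among 10 other genes of the planar polarity pathway, 4 rose and 2 fell, so 60% were called, against 36.1% of all gene names. The cytoplasmic component *Prickle1* rose by 2.91 ± 0.16 on the log2 scale (adjusted p = 5.06e-06, limma), *Prickle2* was at least 2.28-fold higher (not called with normexp, log2 difference 0.46, adjusted p = 0.0695), and the receptors *Fzd6* and *Fzd3* rose by 1.86 ± 0.16 and 1.02 ± 0.19. The membrane partner *Vangl1* fell by 0.61 ± 0.18 and *Prickle3* by 0.72 ± 0.21, calls that depended on the processing. After quantile normalization *Vangl1* gave -0.47 and was not called, and with normexp *Prickle3* gave -0.58 and stayed under 1.5-fold. *Vangl2* and the 3 *Dvl* genes did not pass.

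Of the 6 catenin genes, 4 rose (*Ctnnd2*, *Ctnna2*, *Ctnnd1* and *Ctnna1*), *Ctnnb1* missed the fold threshold and *Ctnna3* was not above background on any array. The higher share was 66.7%, against 13.9% of all gene names. *Ctnnd2*, which encodes the neuronal delta-catenin, read -2.66, -1.97, -3.49 and -2.88 in untreated and 0.65, 0.37, -0.14 and 0.19 in RA-treated cells, a rise of 3.02 ± 0.32 on the log2 scale (8.10-fold, adjusted p = 0.000109, limma), and its other probe gave 2.98 ± 0.28. *Ctnna2*, the neuronal alpha-catenin, read -4.08, -4.27, -3.11 and -4.24 and then -1.14, -1.59, -1.64 and -1.54, a rise of 2.45 ± 0.27 (5.46-fold, adjusted p = 0.000158), and of 1.52 with the normexp correction. Neither gene overlapped between conditions.

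The widely expressed catenins changed less. *Ctnnd1*, which encodes p120-catenin, rose by 1.03 ± 0.14 (2.05-fold, adjusted p = 0.000415, limma), from 3.29, 3.38, 3.22 and 3.34 to 4.58, 4.24, 4.27 and 4.27. *Ctnna1*, which encodes alpha-E-catenin, rose by 0.83 ± 0.15 (1.78-fold, adjusted p = 0.00247), from 6.0, 5.76, 5.79 and 6.16 to 6.97, 6.69, 6.69 and 6.69. *Ctnnb1*, which encodes beta-catenin, was higher on every RA-treated array (4.81 to 4.91) than on any untreated one (4.31 to 4.57), but the change of 0.44 ± 0.13 (adjusted p = 0.0268) stayed under 1.5-fold. With quantile normalization its change was 0.63 and was called.

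Of 14 other genes of the adherens junction, all well above background on all 8 arrays, 2 rose, *Lima1* fell and 11 did not pass. This is 21.4% called, against 36.1% of all gene names. The actin-binding genes *Actn1* and *Vcl*, which encode alpha-actinin and vinculin, rose by 1.50 ± 0.20 and 0.95 ± 0.19 on the log2 scale (adjusted p = 0.000405 and 0.00409, limma). *Lima1*, another actin-binding gene, fell by 0.97 ± 0.25 (adjusted p = 0.0139). The nectin gene *Pvrl2* gave 0.70 ± 0.25 (adjusted p = 0.0528) and *Actn4*, another alpha-actinin gene, 0.38 ± 0.15 (adjusted p = 0.0682), and both were called, at 0.85 and 0.62, after quantile normalization. *Jup*, which encodes plakoglobin, gave -0.21 ± 0.32.

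Among the desmosomal cadherins, 2 of 9 were well above background by the probe used and both rose. The called share was 22.2%, against 36.1% of all gene names. *Dsc2* encodes desmocollin 2, which together with desmoglein 2 forms the desmosomes of simple epithelia and heart. It read -4.52, -4.26, -3.51 and -3.42 in untreated cells and 0.82, 0.04, 0.90 and 1.03 after RA treatment. All RA-treated arrays lay above all untreated ones, and the rise was 4.63 ± 0.31 on the log2 scale (24.7-fold, adjusted p = 1.28e-05, limma), and 3.48 with the normexp correction. *Dsg2*, which encodes desmoglein 2, read -1.98, -0.84, -1.34 and -1.06 and then -0.75, -0.57, -0.41 and -0.28, a rise of 0.80 ± 0.25 (1.74-fold, adjusted p = 0.0328). Leaving out an array ended this call for 5 of the 8 arrays (untreated replicates 1 and 3 and RA-treated replicates 2, 3 and 4), with log2 changes between 0.58 and 0.95. Another *Dsg2* probe, well above background on all 8 arrays, gave 0.58 ± 0.28 and was not called (adjusted p = 0.131, limma). The remaining probe was not above background on any array, and the mean over the probes was not called.

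The other desmosomal cadherins, *Dsc1*, *Dsc3*, *Dsg1a*, *Dsg1b*, *Dsg1c*, *Dsg3* and *Dsg4*, which are known from skin and other stratified epithelia, were not well above background on any array by the probe used. Another probe of *Dsc3* was well above it on 1 untreated array and on no RA-treated one. Of 5 keratinocyte markers, *Krt1* and *Krt10* were lower and the other 3 did not pass, and their summed level was 5.01 to 20.2 in untreated and 8.38 to 16.8 in RA-treated cells.

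Plaque proteins join desmosomal cadherins to keratin filaments, and of 8 genes for them 4 rose, *Evpl* fell and 3 did not pass. This is 62.5% called, against 36.1% of all gene names. *Dsp*, which encodes desmoplakin, rose by 3.33 ± 0.17 on the log2 scale (adjusted p = 3.52e-06, limma), *Ppl*, which encodes periplakin, by 2.38 ± 0.30, *Pkp2*, which encodes plakophilin 2, by 1.80 ± 0.32, and *Perp*, a desmosomal membrane protein gene, by 1.36 ± 0.41. *Evpl*, which encodes envoplakin, fell by 0.90 ± 0.28 (adjusted p = 0.0351) and was not called after quantile normalization (-0.85). The plakophilin gene *Pkp3* gave 0.04 ± 0.15.

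Giant and other cadherin-repeat genes outside the name rule changed in both directions. In the Fat and Dachsous list 71.4% were called and in the other list 44.4%, against 36.1% of all gene names. Of 7 genes of the Fat and Dachsous system, which couples tissue growth to polarity, *Fat4* was at least 11.6-fold and *Fat3* at least 4.15-fold higher, the *Fat4* ligand gene *Dchs1* rose by 4.12 ± 0.20 on the log2 scale (adjusted p = 3.33e-06, limma) and *Fjx1* rose by 1.21 ± 0.24. *Fat2* fell by 1.33 ± 0.15, and *Fat1* and *Dchs2* did not pass. Of 9 further cadherin-repeat genes, *Clstn2*, a calsyntenin of synapses, rose by 3.37 ± 0.43. The photoreceptor cadherin gene *Cdhr1* fell by 4.22 ± 0.33 (adjusted p = 2.61e-05), *Clstn3* by 1.63 ± 0.22 and *Cdhr2* by 0.81 ± 0.21. With the replicate number as a block *Ret*, at 0.96 (adjusted p = 0.0145), and *Clstn1*, at -0.59 (adjusted p = 0.0356), were called as well. *Ret* was also called with quantile normalization (1.19), with normexp and quantile normalization (0.602) and with the authors' values (0.603). With normexp the log2 differences of *Fat4*, *Fat3*, *Dchs1*, *Clstn2* and *Cdhr1* were 2.05, 0.82, 3.06, 2.64 and -2.41.

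Of 5 genes for proteases that cut cadherins, *Adam10*, the main sheddase of N- and E-cadherin, rose by 2.23 ± 0.15 on the log2 scale (adjusted p = 1.05e-05, limma), *Psen2*, a gamma-secretase subunit, by 0.81 ± 0.21 and *Adam15* by 0.62 ± 0.16. *Mmp7* and *Mmp9* did not pass. In this list 60% were called, against 36.1% of all gene names.

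**Figure D5:**
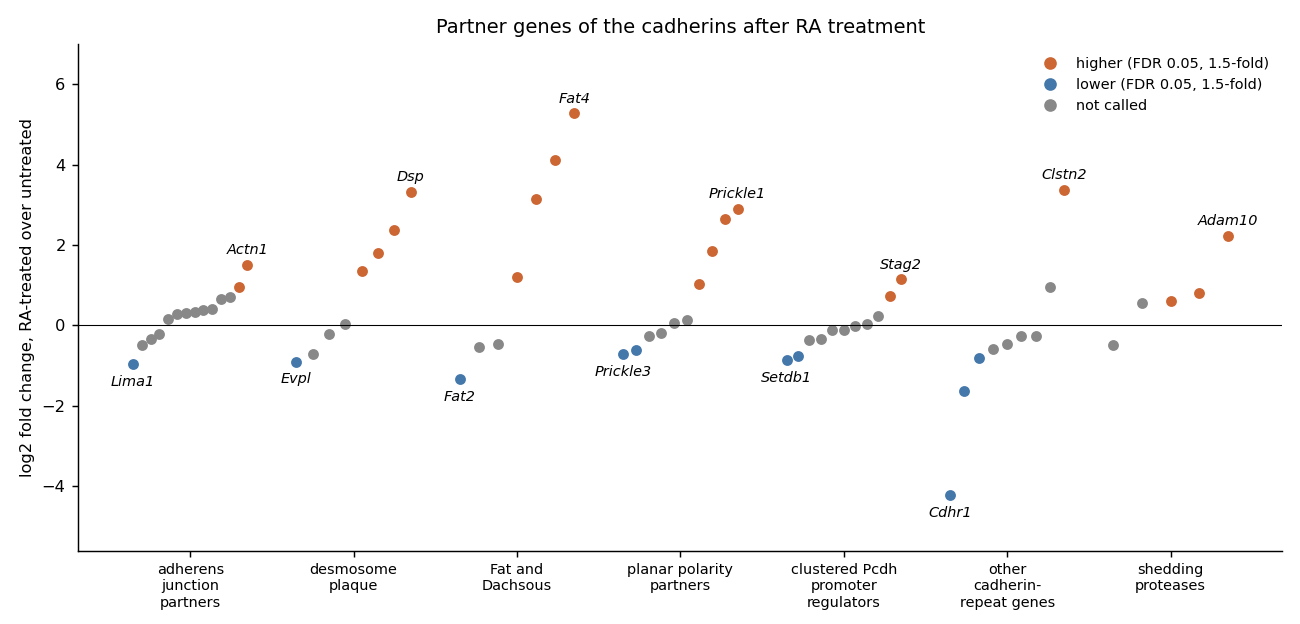
Log2 fold change of RA-treated over untreated cells (vertical axis) for the genes of 7 partner lists (horizontal axis), with 1 point per gene. Orange points were called higher, blue lower and grey did not pass. Genes not above background in untreated cells, such as *Fat4*, are plotted at their measured difference. *Dchs1*, *Clstn2* and *Dsp* are the highest of the genes above background on all 8 arrays, and *Cdhr1* lies lowest.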

How the data were processed

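Total RNA from 4 untreated and 4 RA-treated samples was measured on 1-colour arrays. The authors deposited the Agilent Feature Extraction (10.7.3.1) output of each array, whose processed intensity is background-corrected and detrended but not normalized between arrays. They also deposited log2 values that share 1 distribution on all arrays, used as an alternative. The software and settings behind that table are not given in the sources used here. Probe positions in these files are on mm9. Samples were grouped by their labels, and none was left out.

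In R 4.3.3 the log2 processed intensity minus the 75th percentile of its array was taken over 59305 spots. The 3671 control spots and 124 to 145 outlier spots per array were left out, and spots that repeat a probe were averaged, giving 55681 probes. The RA-treated and untreated arrays were compared in limma 3.58.1 (lmFit, eBayes), two-sided, with Benjamini-Hochberg adjustment over all 55681 probes, and called at an adjusted p under 0.05 and a change above 1.5-fold. Standard errors are from limma. Between 56.7% and 62.7% of spots were well above background. Where no array of a condition was, the bound compares the mean of the brighter condition with a floor, the dimmest probe still well above background on each array of the other condition, or the probe's own signal where that is higher. Such a bound holds for the main scaling only. The normexp differences of *Pcdh12*, *Pcdhb22*, *Prickle2*, *Fat4* and *Fat3* were also below their bounds.

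Tested on simulated data for this comparison (55640 probes, 200 changed by a log2 value of 2), 153 were recovered and 11 unchanged probes were called. The simulated noise was independent between probes, and a far larger share, 34.6% of all probes, was called in the data. The counts therefore check the code and do not give the recovery or error rate of this comparison. Over 27500 probes, the deviations of same-numbered replicates had correlations of 0.186, 0.189, 0.104 and 0.151, against at most 0.142 between different numbers. Number 3 lies below that maximum, and numbers 1 and 2, the highest, are the only ones whose samples share a slide. The check therefore does not settle whether the samples are paired. The comparison itself was fitted without pairing, and the replicate number as a block is an alternative. Each of 2 slides carried 2 untreated and 2 RA-treated samples.

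The member genes and gene lists were chosen with earlier results of these data known. Named genes are the called ones with the largest rise or fall in each group, the catenins, *Celsr* genes and genes with a bound, with the values of all arrays or their range for those described most closely. *Cdh3*, *Cdh11*, *Dsg2* and other genes named outside this rule were added with their values known. Alternatives were quantile normalization, normexp background correction (offset 50) alone and with quantile normalization, the authors' log2 values, a filter on dim probes (well above background on 4 arrays or more), the mean over probes, blocks for replicate and slide, a 2-fold threshold, leaving out each array and, added after seeing the data, each slide alone. Of the 87 symbols 86 matched the RefSeq table (GRCm38.p6), and 29 genes have a promoter sequence there. No protein sequences were used here, and 1 gene of the protease list is not reported here.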

Additional observations from a re-analysis of the deposited data

Results flagged for a closer look

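In 6 of the 72 groups of 4 arrays examined (36 genes in 2 conditions), a single array stood apart from the others by Dixon's criterion, which compares its gap to the nearest array with the range, where chance gives about 1 in 20. *Pcdh9* read -5.71 in RA-treated replicate 1 and -7.52 to -7.80 in the others. *Pcdhb22* read -7.70 in untreated replicate 2 and -6.04 to -5.75 in the others. *Celsr3* read 1.28 in untreated replicate 3 against 2.03 to 2.15, and *Ctnna2* read -3.11 in the same array against -4.08 to -4.27. That array also had the lowest summed ES cell marker level of the untreated arrays (252, against 341 to 355), and its part in these values was not tested. *Ctnnd1* read 4.58 in RA-treated replicate 1 against 4.24 to 4.27, and *Ctnna1* read 6.97 in the same array against 6.69. Within single slides each of the 6 genes except *Ctnna1* kept its call on at least 1 slide, and none of the 6 calls was lost when an array was left out.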

How the results depend on the processing

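All 29 called genes kept their direction under every alternative that gave them a value (the filter on dim probes left 7 without one). With the replicate number as a block, 27 of the 29 were called (*Cdh24* and *Cdh8* were lost), and with the slide as a block all 29. Quantile normalization kept 27, moved the median change of all probes from -0.28 to -0.0026 and the split of all called probes from 7196 higher and 12044 lower to 8152 and 8704. Normexp kept 17 calls, including 4 cadherins and 2 clustered protocadherins. Normexp with quantile normalization, and the authors' values, kept 22 each, with 4 cadherins each. The filter on dim probes left 5 clustered protocadherins, and the mean over probes and the 2-fold threshold left 1 desmosomal cadherin each. Within slides 1 and 2, with 2 arrays a condition, 10554 and 9417 probes were called, and 19 and 17 of the 29 genes, with 6 and 5 clustered protocadherins and 1 and 1 desmosomal cadherin. Within slide 2, 4 cadherins and 2 catenins were called. Leaving out an array gave 27 to 30 called genes, with 4 to 8 cadherins (4 without untreated replicate 2) and 1 to 2 desmosomal cadherins. Values near 0 changed sign: *Ctnna3* at 0.0012 with quantile normalization, *Cdh11* at -0.0187 within slide 1 and between -0.0231 (without untreated replicate 2) and 0.219 when an array was left out, and *Cdh3* at 0.0215, 0.0141, 0.0588 and 0.0575 with quantile normalization, normexp, both, and the authors' values, at 0.397 within slide 1 and between -0.171 and 0.242 (without RA-treated replicate 2) when an array was left out. Of the 30 calls in the partner lists, 28 were kept under each of these 4 scalings and 30 under either block, and the replicate block added 2 (*Ret* and *Clstn1*). The scalings added 3 calls with quantile normalization, 1 with normexp, 3 with both and 3 with the authors' values. Signal over background limits the dim genes: 31 of the 87 genes were not well above background on any array by the probe used.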

Other observations

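*Pcdhb12* read -3.94, -4.55, -7.07 and -3.0 in RA-treated replicates 1 to 4, so 3 of these arrays were well above background and replicate 3 was not. *Cdh29* read -3.48 in untreated replicate 4, the only array on which it was well above background, and -8.06 to -7.43 on the other 7. RefSeq lists this name as a synonym of *Cdhr4*, which the array also carries under its own name and which gave a log2 change of -0.47 ± 0.65. *Pcdh10* read -3.95, -5.28, -2.89 and -2.78 after RA treatment, a wider spread than in untreated cells (-4.51 to -4.06), with a log2 change of 0.53 ± 0.50 (adjusted p = 0.403, limma).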
